A study of Mus musculus with 16 samples.

Results

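Nerves of young mice injected with microbeads were compared with those of naïve mice at 10 months of age. The tissue was the glial lamina, the unmyelinated segment just behind the eye where astrocytes ensheath the axons of retinal ganglion cells. Microbead-injected mice were C57bl/6, 13 weeks old at collection, and had received polystyrene beads in the anterior chamber of 1 eye 4 weeks earlier. Aged naïve mice were C57bl/6, 40 weeks old, and had no injection. The members of the comparison are 7 of the 16 libraries of the series, chosen by label: microbead-injected replicates 1 to 4 and aged naïve replicates 1, 3 and 4. Aged replicate 2 carries the same label but was left out by the authors as an outlier. The other libraries came from young naïve and saline-injected mice, both 13 weeks old, and their levels stand beside those of the 7 where they help to read them. A library held RNA from the pooled nerves of 4 mice (2 male and 2 female). Microbead-injected and aged mice differed in both age and injection, so the effects of each cannot be told apart in this contrast. By the study's own record, every microbead-injected pool also had a lower RNA concentration and a lower RNA integrity number than every aged pool. Whether these have a part in the called genes was not tested.

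Polystyrene beads lodge in the drainage angle of the eye and obstruct the outflow of aqueous humor, which raises IOP, the pressure in the eye and the main risk factor of glaucoma. Astrocytes of the nerve head form a meshwork around the axon bundles, touch the vessels and the pia, and thicken, retract and regrow their processes when the nerve is injured. They also share the nerve head with microglia, endothelial cells, pericytes and fibroblasts of the meninges, and a bulk library sums over all of these. In such a library, fewer cells of a type and less RNA per cell cannot be told apart.

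Library totals were 7321554 to 10726122 counts in microbead-injected nerves and 6213789 to 7670359 counts in the 3 aged nerves, the lowest of which was aged replicate 4. Expression is given as CPM, counts scaled to a common library total, with the totals adjusted by TMM for differences in composition. The 7 libraries carried the markers of glial tissue: 6760.4 to 9854 CPM of Gfap in microbead-injected and 3587 to 4119 CPM in aged nerves, and 171 to 275 and 256 to 278 CPM of the water channel Aqp4. Retinal and pigment cell markers, 19 genes, summed to 1914 to 3429.6 CPM in microbead-injected and 2584 to 5368 CPM in aged nerves, and retinal RNA was thus present in all of them. A pair of libraries outside the comparison stood apart from their groups. Lars2, a locus whose counts may include ribosomal RNA, was 679.7 CPM in aged replicate 2 and 8569.99 to 9313 CPM in the other aged nerves, and it was 5569 CPM in saline replicate 4 against 90.5 to 131 CPM in the other saline nerves and 4205 to 6024 CPM in microbead-injected nerves. Whether the labels of this pair were exchanged was not tested, so aged replicate 2 and saline replicate 4 are named by their labels alone. The library code in the sample titles also differed, being 4 in microbead-injected replicates 1 and 2 and aged replicate 4, 5 in microbead-injected replicates 3 and 4, and 3 in the remaining aged nerves. What the code stands for is not given in the sources used here.

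Microbead-injected and aged nerves differed in 1578 of 14541 genes tested (10.9%), of which 883 were higher (6.07% of all genes) and 695 lower (4.78%) in microbead-injected nerves. A gene was called when it differed at least 1.5-fold with p under 0.01 and adjusted p under 0.05 in edgeR's quasi-likelihood test, and SE stands for the standard error of the log2 fold change. At least 2-fold differences were called for 207 genes higher and 190 genes lower. The 4 microbead-injected and 3 aged libraries did not overlap in 1476 of the called genes, where 33.2% of all genes tested showed no overlap. Without aged replicate 4, the shallowest library, 997 genes were called, of which 926 were also called with it. Within library code 4, 704 genes were called (404 higher, 300 lower), but aged replicate 4 was then the only aged library and was assumed to vary like the 2 microbead-injected and 3 saline-injected libraries of that code. With aged replicate 2 added, 1589 genes were called, and 1196 of them were shared with the 1578. A fit with the library code as a term also rests on aged replicate 4 for the aged level. Codes 3 and 5 each held only 1 of the 2 groups compared. Its fold changes therefore set microbead-injected replicates 1 and 2 against that 1 aged library, and it is no check separate from that within code 4.

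**Figure D1:**
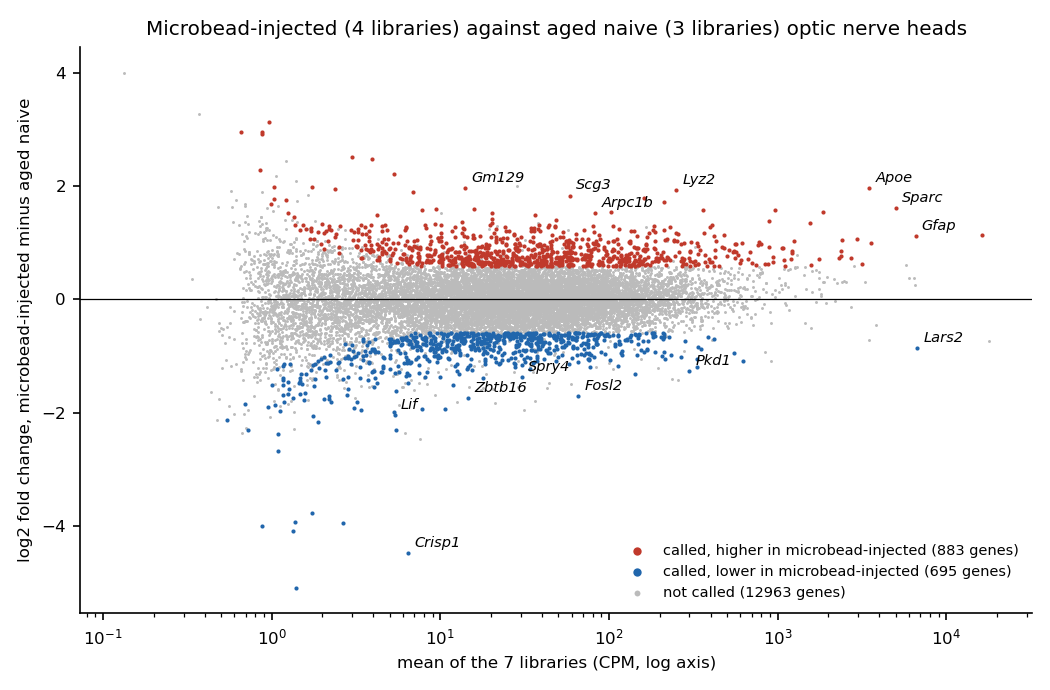
Log2 fold change of each gene tested (microbead-injected minus aged naïve, vertical axis) against its mean CPM in the 7 libraries (log axis). Red points are the 883 genes called higher, blue points the 695 called lower and grey points those not called; Apoe, Lyz2 and Scg3 lie near 2 and Crisp1 at -4.48.

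Aged replicate 2 played no part in choosing these genes. On a scale from the mean of the other aged nerves (0) to the mean of the microbead-injected nerves (1), its median place was 0.03 over the 883 genes that were higher, and 660 of them (74.7%) lay nearer to the aged mean. Over the 695 genes that were lower, its median place was 0.37 and 401 (57.7%) lay nearer to the aged mean. The aged libraries were not alike either, since aged replicate 4 was the lowest of the 3 in 673 of the 883 higher genes and the highest in 485 of the 695 lower genes. Microbead-injected replicate 4 was the highest of its group in 535 of the 883. Comparisons of young naïve nerves with aged ones use the same aged libraries, so only the levels of young and saline-injected nerves are given below, gene by gene.

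Gene lists ordered by function or cell type were read against the share of all genes called. Collagens, astrocyte markers, microglia markers, heat shock genes and proteins of process outgrowth held the largest shares of genes called higher among lists of at least 20 tested genes. Immediate early genes held the largest share called lower, and no member of that list was called higher. The median log2 fold change over all genes tested was close to 0 (0.0003), to which the median of each list can be compared.

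**Figure D2:**
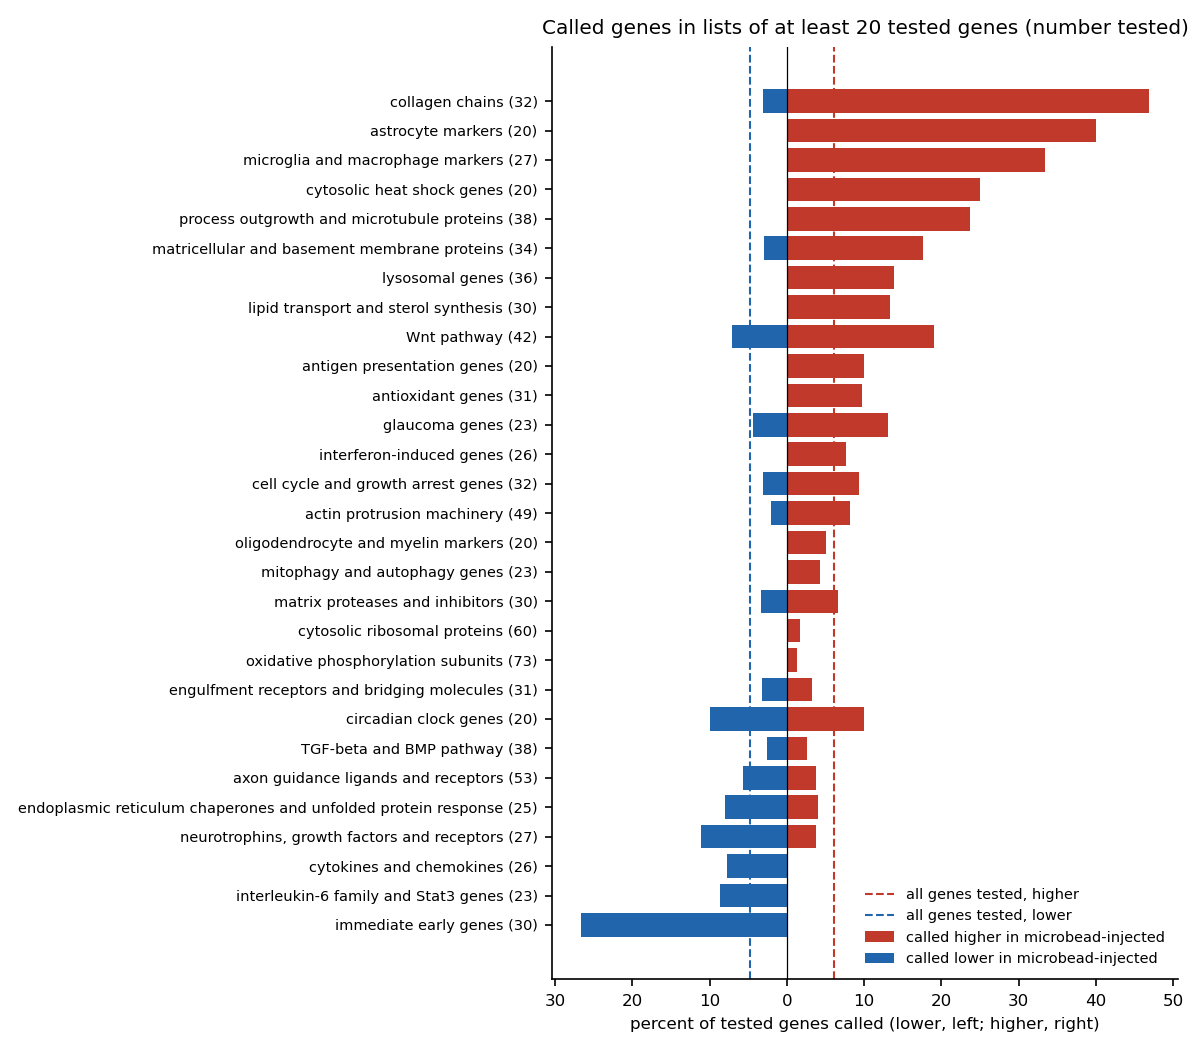
Share of the tested genes of each list called higher (red, right) or lower (blue, left) in microbead-injected than in aged nerves, in percent, for lists of at least 20 tested genes. Dashed lines mark the share over all genes tested, 6.07% higher and 4.78% lower; collagen chains lie at the top (46.9% higher) and immediate early genes at the bottom (26.7% lower).

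Lipoprotein genes of the glia were among the largest differences. Apoe, the main apolipoprotein that astrocytes and microglia secrete (chromosome 7, 19696244 to 19699166 of mm10), had 2899, 4400.2, 5141 and 8104 CPM in microbead-injected nerves and 1647, 1629.7 and 688 CPM in aged nerves. The groups did not overlap, although both spread widely (edgeR log2 fold change 1.96, SE 0.382, adjusted p = 0.00423). Young naïve nerves held 9037 to 12554 CPM and saline-injected nerves 6042 to 8363 CPM, and microbead-injected nerves averaged between these and aged nerves. Clu, the secreted chaperone clusterin that also circulates in lipoproteins, had 1519, 2644, 2483 and 3729 CPM in microbead-injected and 1226, 1074 and 387 CPM in aged nerves (edgeR log2 fold change 1.53, SE 0.378, adjusted p = 0.0136). It too was highest in microbead-injected replicate 4 and lowest in aged replicate 4. Apod, a lipocalin of glia and meningeal cells, averaged 2764 ± 68.8 CPM in microbead-injected and 1672 ± 475 CPM in aged nerves (SD, n = 4 and 3; log2 fold change 0.73), and its call was lost without aged replicate 4. Lpl, a lipase that releases fatty acids from lipoproteins, was called too (7.69 to 18.7 CPM in microbead-injected and 4.92 to 7.86 CPM in aged nerves, log2 fold change 1.10), although its groups overlapped. These were the only called genes of 30 in lipid transport and sterol synthesis, none was lower, and the median of the list was 0.05.

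Sparc and its relative Sparcl1, matricellular proteins that astrocytes release and that act on synapses and matrix, followed the same order. Sparc (chromosome 11, 55394501 to 55420080) had 5124, 6067, 7190.4 and 9793 CPM in microbead-injected nerves and 2621, 2681 and 1605 CPM in aged nerves. The lowest microbead-injected nerve lay far above the highest aged one (edgeR log2 fold change 1.61, SE 0.210, adjusted p = 1.56e-04). Sparcl1, or hevin, had 340.1, 474, 478 and 728 CPM in microbead-injected and 205, 199 and 104 CPM in aged nerves (edgeR log2 fold change 1.58, SE 0.283, adjusted p = 0.00238). Both averaged higher still in young naïve nerves, which had 11643 to 14126 CPM of Sparc and 707 to 1004 CPM of Sparcl1. Spock1 and Spock2, related to both, were not called (log2 fold changes -0.30 and -0.02). Of 34 matricellular and basement membrane proteins, 6 were called higher and 1 lower, with a median of 0.17. Among the others, Tnc, the tenascin of reactive astrocytes, averaged 93.6 ± 16.1 CPM in microbead-injected and 47.6 ± 8.64 CPM in aged nerves (SD, n = 4 and 3; edgeR log2 fold change 0.98, SE 0.156, adjusted p = 3.83e-04). Lama1, a laminin chain of pial and vascular basement membranes, was the lower one, with 8.38 ± 1.03 CPM in microbead-injected and 14.3 ± 1.23 CPM in aged nerves (SD, n = 4 and 3; edgeR log2 fold change -0.77, SE 0.171, adjusted p = 0.00336).

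**Figure D3:**
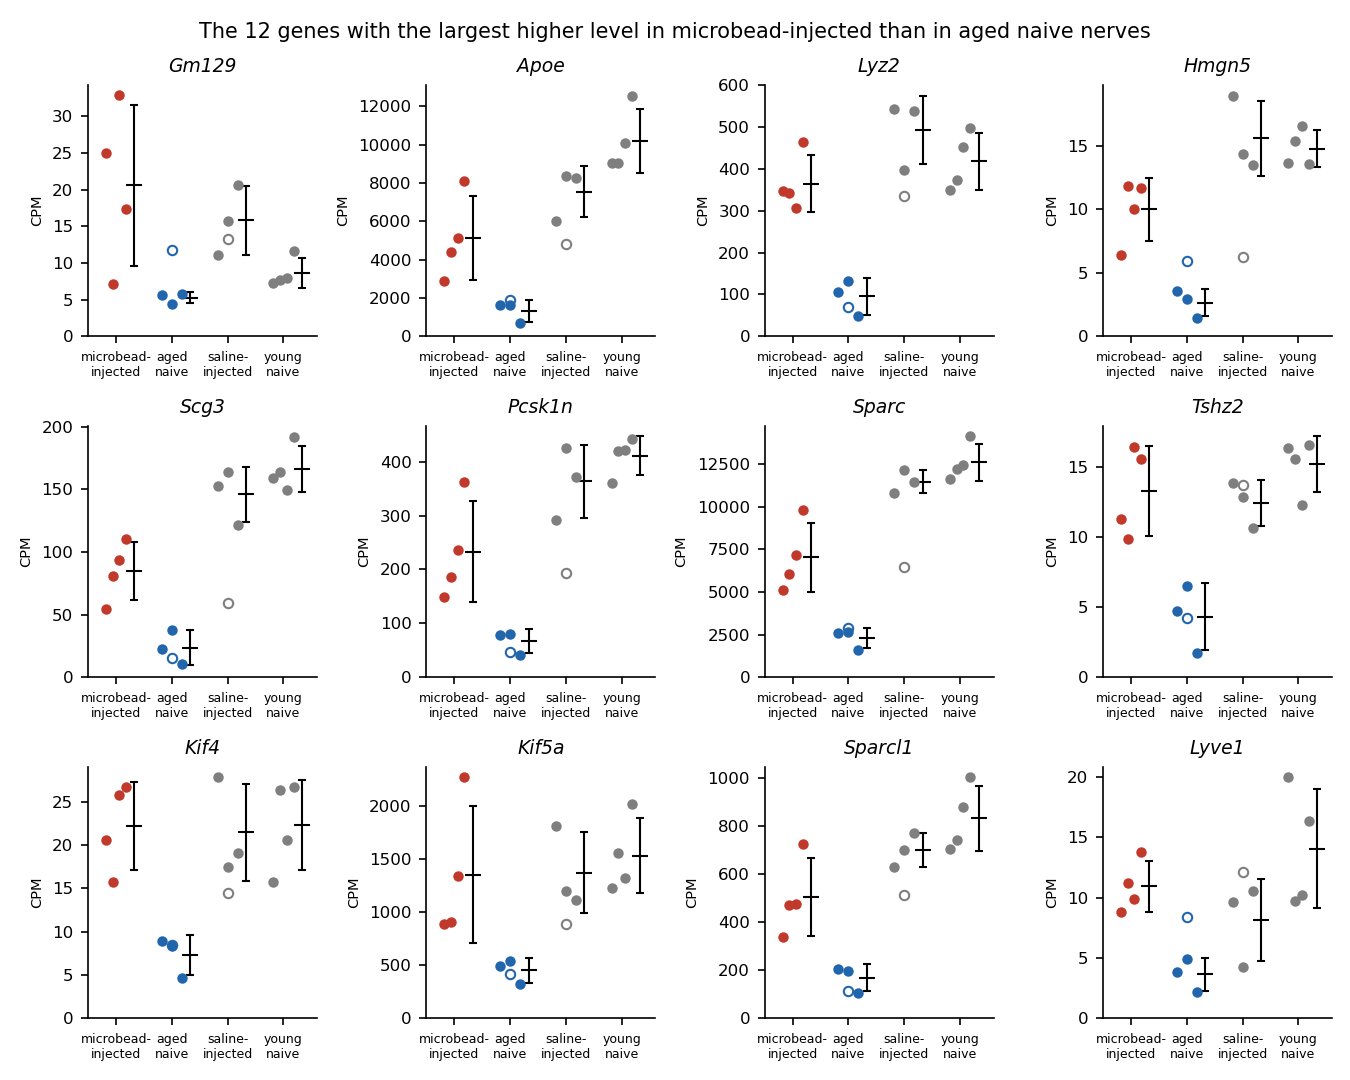
Expression in CPM (vertical axes, from 0) of the 12 genes with the largest log2 fold change among called genes higher in microbead-injected nerves. Filled points are libraries (4 microbead-injected, 3 aged naïve, 3 saline-injected, 4 young naïve), bars show mean ± SD of the filled points, and open points are aged replicate 2 and saline replicate 4, which did not enter the fit. Filled microbead-injected points lie above filled aged points in every panel, since the rule required it.

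A pair of the 12 largest differences, Scg3 and Pcsk1n, are genes of regulated secretion, and Cpe and Scg2 are set beside them after their values were seen. Scg3, or secretogranin III, a sorting protein of dense-core granules, had 54.7, 81.1, 93.6 and 109.98 CPM in microbead-injected and 22.7, 37.98 and 10.4 CPM in aged nerves (edgeR log2 fold change 1.83, SE 0.359, adjusted p = 0.00427). Pcsk1n, which encodes the prohormone convertase inhibitor proSAAS, had 149, 185, 237 and 363 CPM in microbead-injected and 78.96, 80.9 and 42.1 CPM in aged nerves (edgeR log2 fold change 1.79, SE 0.317, adjusted p = 0.00236). Cpe, or carboxypeptidase E, which trims peptide hormones in the same granules, had 844, 1092, 1348 and 1528 CPM in microbead-injected and 574, 514 and 291 CPM in aged nerves (edgeR log2 fold change 1.39, SE 0.228, adjusted p = 0.00105). All 3 were lowest in aged replicate 4, and young naïve nerves held more Scg3 (149.8 to 192 CPM) and Cpe (1652 to 1995 CPM) than any microbead-injected nerve. Scg2, another granin, showed a larger log2 fold change (2.01) that did not pass the test (adjusted p = 0.0762 from edgeR), with 31.2 to 52.99 CPM in microbead-injected, 4.63 to 16.5 CPM in aged and 28.6 to 135 CPM in young naïve nerves.

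Axonal transcripts were higher in part. Kif5a, the neuronal kinesin heavy chain that carries cargo along axons, had 893, 908, 1337 and 2274 CPM in microbead-injected and 495, 541 and 320.04 CPM in aged nerves (edgeR log2 fold change 1.58, SE 0.366, adjusted p = 0.00988). Its call was lost without aged replicate 4. Nefh, the heavy neurofilament subunit, had 22.6, 20.8, 26.7 and 39.98 CPM in microbead-injected and 9.53, 13.4 and 7.82 CPM in aged nerves (edgeR log2 fold change 1.42, SE 0.251, adjusted p = 0.00118). The partner of Nefh, Nefm, was near the limit of the counts, at 2.97 to 5.03 CPM in microbead-injected and 2.02 to 2.83 CPM in aged nerves (edgeR log2 fold change 0.87, SE 0.274, adjusted p = 0.0264). Of 17 RNAs known from ganglion cells and their axons, only the 2 neurofilament genes were called (11.8%, against 6.07% of all genes called higher). The list median was 0.26, and 1 gene was called without aged replicate 4 or without microbead-injected replicate 4. Retinal transcripts varied at the same time, as the summed retinal markers show, and their part in these values was not tested.

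The rest of the 12 largest came from several cell types. Gm129, now named Ciart, a repressor of the circadian clock, led the list and is described with the clock genes. Lyz2, the lysozyme of macrophages and microglia, had 347, 343, 306 and 463 CPM in microbead-injected and 107, 133 and 47.5 CPM in aged nerves (edgeR log2 fold change 1.93, SE 0.306, adjusted p = 0.00125). Lyve1, a hyaluronan receptor of lymphatic vessels and of perivascular macrophages, had 8.82, 11.2, 9.90 and 13.8 CPM in microbead-injected and 3.81, 4.92 and 2.17 CPM in aged nerves (edgeR log2 fold change 1.58, SE 0.362, adjusted p = 0.00571). Aged replicate 2 held 8.39 CPM of Lyve1, nearly the level of the lowest microbead-injected nerve. Hmgn5, an X-linked nucleosome-binding protein, averaged 10.001 ± 2.51 CPM in microbead-injected and 2.66 ± 1.09 CPM in aged nerves (SD, n = 4 and 3; log2 fold change 1.89). Tshz2, a zinc finger transcription factor, averaged 13.3 ± 3.21 and 4.34 ± 2.42 CPM (SD, n = 4 and 3; log2 fold change 1.60). Kif4, a kinesin of chromosome condensation and the spindle, averaged 22.2 ± 5.04 and 7.31 ± 2.33 CPM in the same order (SD, n = 4 and 3; log2 fold change 1.59). Of 32 cell cycle and growth arrest genes, 3 were called higher (9.4%) and 1 lower (3.1%), with a median of 0.11. These shares were near those of all genes (6.07% and 4.78%). That list summed to 2136 to 2251 CPM in microbead-injected and 1705 to 1857 CPM in aged nerves.

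Astrocyte markers were higher in microbead-injected nerves for part of the list. Of 20 markers, 8 were called higher and none lower, and the median was 0.50. Gfap, the intermediate filament of astrocytes (chromosome 11, 102887336 to 102897200), had 6760.4, 8368, 9171 and 9854 CPM in microbead-injected and 4119, 4115 and 3587 CPM in aged nerves. The aged nerves agreed closely and all lay below the lowest microbead-injected nerve (edgeR log2 fold change 1.12, SE 0.121, adjusted p = 2.35e-05). Young naïve nerves were between the groups, at 5237 to 6511 CPM, and saline-injected nerves overlapped the microbead-injected ones at 6989 to 8528 CPM. Kcnj10, the potassium channel Kir4.1 through which astrocytes clear potassium, had 63.6, 53.2, 89.7 and 74.8 CPM in microbead-injected and 30.1, 41.2 and 21.6 CPM in aged nerves (edgeR log2 fold change 1.18, SE 0.220, adjusted p = 0.00196). The calcium-binding protein S100b (log2 fold change 0.93), the astrocyte transcription factor Sox9 (0.84) and the glutamate transporter Slc1a3 (0.76) were called as well. Aqp4 was not, with 202, 275, 239 and 171 CPM in microbead-injected and 256, 278 and 269 CPM in aged nerves (edgeR log2 fold change -0.27, SE 0.120, adjusted p = 0.106). The summed level of the 20 markers was 18818 to 24807 CPM in microbead-injected and 12114 to 13446 CPM in aged nerves, so whether single genes or the share of astrocyte RNA differed cannot be told apart.

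Genes of astrocyte reactivity were read in 3 groups that earlier work on brain astrocytes has defined. Among 13 pan-reactive genes, 4 were called higher and none lower, with a median of 0.51. Besides Gfap they were Vim, a second intermediate filament (3810.1 ± 567 CPM in microbead-injected and 1829.6 ± 312 CPM in aged nerves, SD, n = 4 and 3; edgeR log2 fold change 1.06, SE 0.125, adjusted p = 3.51e-05), the secreted protease inhibitor Serpina3n (log2 fold change 1.03) and the copper oxidase Cp, or ceruloplasmin (0.65). For Vim and Serpina3n young naïve nerves lay above all microbead-injected nerves, at 4623 to 5355 and 299.7 to 381 CPM. Of 12 genes of the neurotoxic (A1) set, 4 were called higher and 1 lower, and 2 were higher without aged replicate 4. C3, the central complement component, had 54.9998, 93.9, 59.1 and 57.6 CPM in microbead-injected and 24.7, 34.9 and 15.6 CPM in aged nerves (edgeR log2 fold change 1.40, SE 0.261, adjusted p = 0.00231). Serping1, the inhibitor of complement C1, averaged 986 ± 56.5 CPM in microbead-injected and 489 ± 121 CPM in aged nerves (SD, n = 4 and 3; edgeR log2 fold change 1.01, SE 0.124, adjusted p = 4.28e-05). Gbp2, an interferon-induced GTPase (1.20), and H2-D1, a class I antigen-presenting molecule (0.70), were higher too, and the glycosyltransferase Ggta1 was lower (-0.74). None of 12 genes of the A2 set, described after ischemia, was called by edgeR or by DESeq2 (4 had an unadjusted p under 0.05 in edgeR), and their median was -0.05.

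Collagens held the largest share of genes called higher among lists of at least 20 tested genes. Of 32 collagen chains, 15 were called higher and 1 lower (Col4a4), with a median of 0.60. Col1a1, the main chain of type I collagen (chromosome 11, 94936270 to 94951856), had 534, 551, 458 and 567 CPM in microbead-injected and 284, 357 and 225 CPM in aged nerves (edgeR log2 fold change 0.87, SE 0.138, adjusted p = 3.42e-04). Young naïve nerves held 208 to 255 CPM and saline-injected nerves 301 to 400.04 CPM of Col1a1, both below every microbead-injected nerve. Its partner Col1a2 averaged 1315 ± 101 CPM in microbead-injected and 705 ± 103 CPM in aged nerves (SD, n = 4 and 3; edgeR log2 fold change 0.90, SE 0.119, adjusted p = 7.37e-05). Col3a1, the fibrillar collagen of pliable tissue, averaged 787 ± 86.8 and 393 ± 119 CPM (SD, n = 4 and 3; edgeR log2 fold change 1.00, SE 0.168, adjusted p = 7.53e-04). Col23a1, a transmembrane collagen (log2 fold change 1.26), and Col9a2, a chain of a fibril-associated collagen (1.21), differed more, and their young naïve levels were within the range of microbead-injected nerves. Without aged replicate 4, or without microbead-injected replicate 4, 9 collagens were called higher.

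Cells of the meninges also make collagen, and their markers were higher in part. Of 17 markers of meninges and fibroblasts, 10 were called higher and none lower, with a median of 0.91, and the sum of the list was 25434 to 36760.5 CPM in microbead-injected and 10332 to 19027 CPM in aged nerves. Col1a1, Col1a2 and Col3a1 are on this list too. In young naïve nerves the marker sum was 28779.7 to 35137 CPM, as in microbead-injected nerves, while collagens summed to 2978 to 3296 CPM, against 3952 to 4848 CPM in microbead-injected and 2445 to 3266 CPM in aged nerves. In aged replicate 2 the marker sum was 47101 CPM, the highest of all, while its collagens summed to 1668 CPM, the lowest. Ogn, a small proteoglycan of meningeal fibroblasts, had 351, 300.3, 265 and 373 CPM in microbead-injected and 158, 198 and 117 CPM in aged nerves (edgeR log2 fold change 1.03, SE 0.187, adjusted p = 0.00159). Without aged replicate 4, without microbead-injected replicate 4 or with aged replicate 2 added, 6 of the 17 markers were called higher. How far the share of meninges in each dissection accounts for the collagens was not tested. Of 30 matrix proteases and inhibitors, 2 were higher, Plat, or tissue plasminogen activator (0.62), and the membrane-bound protease Mmp14 (0.71), and Mmp11 was lower (-0.86). The 2 higher calls were lost without aged replicate 4.

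Vessel markers differed in both directions. Of 18 endothelial markers, 4 were called higher and 1 lower, with a median of 0.31 and sums of 1471 to 1725 CPM in microbead-injected and 1366 to 1616 CPM in aged nerves. Pecam1, an adhesion molecule of endothelial junctions, had 58.6, 52.2, 56.6 and 55.8 CPM in microbead-injected and 35.6, 31.5 and 28.4 CPM in aged nerves (edgeR log2 fold change 0.81, SE 0.120, adjusted p = 1.75e-04). Tek, the angiopoietin receptor, was higher (0.62) and the transporter Slco1a4 of the blood-brain barrier lower (-0.59). The tight junction protein Cldn5 was not called (131 to 149.999 CPM in microbead-injected and 83.5 to 135 CPM in aged nerves). Among 12 mural cell markers, the contractile proteins Tagln (1.17) and Myh11 (1.17) and the matrix protein Vtn (0.86) were higher and the receptor Notch3 was lower (-0.77). The median of the 12 was -0.07, and 5 of them had a positive log2 fold change.

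Protrusion of cell processes rests on branched actin, which the Arp2/3 complex nucleates and cofilin and capping protein turn over. Of 49 genes of this machinery, 4 were called higher and 1 (Abi2) lower, a share close to that of all genes, with a median of 0.08. Arpc1b, a subunit of the Arp2/3 complex, stood out, with 99.6, 116, 114 and 131 CPM in microbead-injected and 44.4, 46.7 and 29.1 CPM in aged nerves (edgeR log2 fold change 1.52, SE 0.141, adjusted p = 1.19e-05). It was higher again in young naïve (137 to 165 CPM) and saline-injected nerves (144 to 172 CPM). Cfl1, or cofilin, which severs filaments, averaged 666 ± 55.7 CPM in microbead-injected and 371 ± 51.6 CPM in aged nerves (SD, n = 4 and 3; edgeR log2 fold change 0.84, SE 0.0969, adjusted p = 3.03e-05). The capping protein subunit Capzb (0.75) and Myo10, the myosin of filopodial tips (0.61), were the others. Myo10 was almost the same in the 3 aged nerves of the fit, at 84.7, 83.7 and 83.8 CPM, and had 118, 132, 124 and 139 CPM in microbead-injected nerves. Aged replicate 2 held 67.7 CPM.

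Of 38 adhesion molecules and microtubule proteins of process outgrowth, 9 were called higher and none lower (median 0.24). Ncam1, the neural cell adhesion molecule (chromosome 9, 49502146 to 49799069), had 611, 718, 722 and 803 CPM in microbead-injected and 368, 389 and 325 CPM in aged nerves (edgeR log2 fold change 0.98, SE 0.0966, adjusted p = 1.19e-05). Nrcam, a related adhesion molecule of the L1 family, had 183, 270.4, 249 and 269.9 CPM in microbead-injected and 143, 151 and 145 CPM in aged nerves (edgeR log2 fold change 0.74, SE 0.121, adjusted p = 3.92e-04). Mtap4, a microtubule-associated protein found outside neurons (0.77), and Clip1, which tracks growing microtubule ends (0.87), were also higher. Young naïve levels of all 4 overlapped those of microbead-injected nerves. Among 53 axon guidance genes, the semaphorin Sema3b (1.12) and the ephrin receptor Ephb2 (0.98) were higher and the netrin receptor Dcc, the semaphorin Sema3e (-0.89) and the plexin Plxna2 (-0.60) were lower. These shares, 3.77% higher and 5.66% lower, were near those of all genes (6.07% and 4.78%), and the list median was 0.003. Ephb2 had 38.2, 49.8, 48.8 and 57.2 CPM in microbead-injected and 24.5, 29.4 and 19.7 CPM in aged nerves, and 20.2 to 35.5 CPM in young naïve nerves, lower than any microbead-injected nerve.

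Astrocytes of the nerve head take up debris, and 31 engulfment receptors and bridging molecules were measured. Lgals3, or galectin 3, a bridging lectin of phagocytic cells, was called higher, with 409.9, 353, 503 and 487 CPM in microbead-injected and 301, 313 and 218 CPM in aged nerves (edgeR log2 fold change 0.66, SE 0.142, adjusted p = 0.0032). Cd36, a scavenger receptor, was lower, with 98.2, 52.8, 49.3 and 59.7 CPM in microbead-injected and 112, 109 and 148 CPM in aged nerves (edgeR log2 fold change -0.93, SE 0.246, adjusted p = 0.0169). Lgals3 and Cd36 were the only called genes of the list (3.23% each way, against 6.07% higher and 4.78% lower of all genes), and its median was -0.03. Megf10, the engulfment receptor of astrocytes, had 68.03, 79.3, 79.8 and 80.6 CPM in microbead-injected and 67.05, 81.9 and 81.9 CPM in aged nerves, with a log2 fold change of 0.00 (standard error 0.103). Of the 18 genes tested from a panel also used on single astrocytes, Lgals3 alone was called (5.56%, against 6.07% of all genes called higher). The calls of Lgals3 and Cd36 were both lost without aged replicate 4 and with aged replicate 2 added. Those below the 1.5-fold minimum included Lamp1, a lysosomal membrane protein (edgeR log2 fold change 0.57, SE 0.0835, adjusted p = 1.63e-04), the lipid transporter Abca1 (-0.56, adjusted p = 0.00581 from edgeR) and the transcription factor Stat3 (0.36, adjusted p = 0.00772 from edgeR). The remaining genes of the panel also lay between -0.56 and 0.57 on the log2 scale. Mfge8, a bridge to phosphatidylserine, had 275 ± 14.8 CPM in microbead-injected and 237 ± 32.5 CPM in aged nerves (SD, n = 4 and 3; log2 fold change 0.21). The kinase Pink1 of mitophagy had 513 ± 34.1 and 449 ± 29.7 CPM (SD, n = 4 and 3; log2 fold change 0.19).

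Lysosomal proteases were the called members among 36 lysosomal genes, 5 of which were higher and none lower (median 0.24). Ctsb, or cathepsin B, had 1416, 1540.4, 1425 and 1569 CPM in microbead-injected and 894, 903 and 722 CPM in aged nerves (edgeR log2 fold change 0.82, SE 0.104, adjusted p = 5.17e-05). Ctsh (0.60), Ctsa (0.60), Ctsd and the microglial Ctss (0.67) were the others. Leaving out aged replicate 4 or microbead-injected replicate 4 left 2 of the 36 called higher. In mitophagy and autophagy, 1 of 23 genes was called, Optn, the receptor optineurin that is mutated in some glaucoma families, with 27.6, 27.2, 21.02 and 26.3 CPM in microbead-injected and 20.7, 16.3 and 11.3 CPM in aged nerves (edgeR log2 fold change 0.65, SE 0.178, adjusted p = 0.0121). This share of 4.35% was below that of all genes called higher (6.07%), and the call of Optn was lost without aged replicate 4.

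Markers of microglia, the resident macrophages of the nerve, were also higher in part. Of 27 markers of microglia and macrophages, 9 were called higher and none lower, with a median of 0.46. Siglech, a lectin restricted to microglia and plasmacytoid dendritic cells, had 19.9, 20.5, 25.8 and 24.03 CPM in microbead-injected and 10.6, 12.7 and 7.67 CPM in aged nerves (edgeR log2 fold change 1.12, SE 0.167, adjusted p = 1.78e-04). Aif1, which encodes Iba1, had 28.4, 28.5, 27.4 and 22.2 CPM in microbead-injected and 24.8, 24.7 and 20.1 CPM in aged nerves and was not called (edgeR log2 fold change 0.19, SE 0.129, adjusted p = 0.291). The sum of the list was 3679 to 4198 CPM in microbead-injected, 2296 to 2889 CPM in aged and 4214 to 5551 CPM in young naïve nerves. Without aged replicate 4, 5 of the 27 were called higher. The fit with the library code as a term has aged replicate 4 as its only aged reference, so its count is not given.

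Complement and antigen presentation genes are made by several cell types, and C1qa, C1qb, C1qc and Cd74 are also on the list of microglia and macrophage markers. Of 19 complement genes, 8 were called higher and none lower (median 0.46), and 4 were without aged replicate 4. C1qb, a chain of the first component, had 252, 269, 253 and 253 CPM in microbead-injected and 159.8, 153 and 119 CPM in aged nerves (edgeR log2 fold change 0.83, SE 0.129, adjusted p = 2.55e-04). Cd59a, which blocks the membrane attack complex, averaged 47.4 ± 6.21 CPM in microbead-injected and 24.4 ± 5.36 CPM in aged nerves (SD, n = 4 and 3; edgeR log2 fold change 0.95, SE 0.152, adjusted p = 3.10e-04). Cd74, the invariant chain of class II presentation (1.03), and H2-D1 were the called genes of 20 in antigen presentation (10%, against 6.07% of all genes called higher). Of 26 interferon-induced genes, Gbp2 and Ifit1 were called higher (7.69%, near the 6.07% of all genes). Ifit1 ranged widely, from 154 to 411 CPM in microbead-injected nerves and from 44.1 to 158 CPM in aged nerves (edgeR log2 fold change 1.72, SE 0.543, adjusted p = 0.0405). Both interferon calls were lost without aged replicate 4. Microglia markers were higher in the same nerves, and their part in these genes was not tested.

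Immediate early genes, which respond to stimuli within minutes without new protein synthesis, were lower in microbead-injected nerves. Of 30 tested, 8 were called lower and none higher, and the median was -0.64. Fosl2, a partner of Jun in the AP-1 factor, had 26.97, 47.2, 25.8 and 32.9 CPM in microbead-injected and 56.9, 99.3 and 169.5 CPM in aged nerves (edgeR log2 fold change -1.70, SE 0.357, adjusted p = 0.00574). Egr2, a zinc finger factor of myelinating Schwann cells and of stimulated cells, had 4.47, 4.24, 5.15 and 5.32 CPM in microbead-injected and 12.3, 16.8 and 26.2 CPM in aged nerves (edgeR log2 fold change -1.93, SE 0.611, adjusted p = 0.0391). The 4 microbead-injected nerves agreed closely for Egr2, whereas young naïve nerves ran from 1.46 to 16.96 CPM. Dusp1, the phosphatase that switches off p38 and JNK, had 319, 324, 469 and 563 CPM in microbead-injected and 892, 739 and 1037 CPM in aged nerves (edgeR log2 fold change -1.09, SE 0.341, adjusted p = 0.0386). Dusp6, the phosphatase of ERK, had 64.9, 78.98, 64.2 and 63.3 CPM in microbead-injected and 149, 113 and 134 CPM in aged nerves (edgeR log2 fold change -0.96, SE 0.108, adjusted p = 3.03e-05). Here the groups were clearly apart, and young naïve nerves (69.7 to 80.9 CPM) were with the microbead-injected ones. Btg2, an antiproliferative gene (-1.01), the Krüppel-like factors Klf6 (-0.84) and Klf2 (-0.79) and Zfp36, which destabilizes cytokine messenger RNAs (-0.64), completed the set. Without aged replicate 4, 4 of the 30 were called lower, and some calls were also lost with the library code as a term. The call of Egr2 was lost when any 1 library but aged replicate 1 was left out, and that of Dusp1 when any but microbead-injected replicate 4 was. Each aged nerve lay above every microbead-injected nerve for all 8, but aged replicate 2 did not for Fosl2 (30.9 CPM).

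The start sites of these genes are shown because immediate early genes are known for 2 short elements, the cAMP response element (CRE, TGACGTCA, which binds CREB) and the CArG box, which binds the serum response factor. RefSeq promoter windows of GRCm38.p6, from 250 bases before to 50 bases after an annotated start, were matched for all 8. The start nearest to the gene's 5′ end in the count table was taken. The CRE was found on either strand in 2 of the 8 windows and the CArG box in 2. Over 27025 genes with a window, the CRE was found in 1.88% and the CArG box in 1.57%. The 4 windows with a match are printed 5′ to 3′ on the strand of the gene, with the CRE or CArG box in capitals, and with E-boxes (CACGTG) in capitals as well.
Dusp1, chr17:26508423-26508722, minus strand: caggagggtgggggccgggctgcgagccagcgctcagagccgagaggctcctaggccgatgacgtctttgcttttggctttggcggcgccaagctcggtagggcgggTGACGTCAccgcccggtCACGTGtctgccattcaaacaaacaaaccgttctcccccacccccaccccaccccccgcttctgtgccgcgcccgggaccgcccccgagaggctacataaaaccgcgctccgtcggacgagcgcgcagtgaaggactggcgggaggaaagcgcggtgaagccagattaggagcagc
Btg2, chr1:134079106-134079405, minus strand: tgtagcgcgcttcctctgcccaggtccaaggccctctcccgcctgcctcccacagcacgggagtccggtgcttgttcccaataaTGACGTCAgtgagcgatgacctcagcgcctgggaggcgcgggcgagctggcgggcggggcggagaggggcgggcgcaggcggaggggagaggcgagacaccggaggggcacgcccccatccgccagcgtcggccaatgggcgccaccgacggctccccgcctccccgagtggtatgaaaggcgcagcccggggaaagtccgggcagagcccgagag
Zfp36, chr7:28379179-28379478, minus strand: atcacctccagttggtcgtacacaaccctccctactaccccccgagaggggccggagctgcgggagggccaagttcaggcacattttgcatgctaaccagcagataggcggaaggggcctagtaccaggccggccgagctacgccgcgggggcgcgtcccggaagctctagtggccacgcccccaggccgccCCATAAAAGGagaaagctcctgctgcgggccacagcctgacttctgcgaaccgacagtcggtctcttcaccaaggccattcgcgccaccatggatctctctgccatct
Egr2, chr10:67537619-67537918, plus strand: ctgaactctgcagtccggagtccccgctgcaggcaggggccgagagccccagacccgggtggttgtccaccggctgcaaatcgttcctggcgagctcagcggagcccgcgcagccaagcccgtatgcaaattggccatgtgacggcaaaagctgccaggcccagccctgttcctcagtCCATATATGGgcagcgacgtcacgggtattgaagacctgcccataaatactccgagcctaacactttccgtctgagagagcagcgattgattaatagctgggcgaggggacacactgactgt
In Dusp1 and Btg2 the capitals hold the CRE (Dusp1 also has an E-box after it), and in Zfp36 and Egr2 they hold the CArG box. A match describes the letters of a window and not binding. Fosl2, Dusp6 and Klf2 held neither element nor an E-box in their windows, and Klf6 held an E-box only.

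Spry4, one of the 12 largest, encodes a Sprouty protein, which restrains receptor tyrosine kinase signalling and is induced by it. It had 16.6, 20.8, 15.9 and 19.2 CPM in microbead-injected and 39.3, 41.2 and 60.8 CPM in aged nerves (edgeR log2 fold change -1.37, SE 0.156, adjusted p = 3.03e-05). Spry1 had 115, 131, 109 and 143 CPM in microbead-injected and 174, 194 and 254 CPM in aged nerves (edgeR log2 fold change -0.74, SE 0.135, adjusted p = 0.00105). Spry2 was not called (log2 fold change -0.06), and the call of Spry1 was lost without aged replicate 4. Aged replicate 2 lay below the other aged nerves for Spry4 and Spry1, at 22.8 and 139 CPM. Lif, leukemia inhibitory factor, which signals through Stat3, had 2.50, 2.44, 2.83 and 1.42 CPM in microbead-injected and 6.55, 10.8 and 11.001 CPM in aged nerves (edgeR log2 fold change -2.04, SE 0.271, adjusted p = 7.38e-05). Socs3, the inhibitor that Stat3 induces, had 36.97, 49.4, 35.5 and 42.5 CPM in microbead-injected and 68.2, 65.6 and 69.9 CPM in aged nerves (edgeR log2 fold change -0.72, SE 0.136, adjusted p = 0.0011). These were the only called genes of 23 in the interleukin-6 family and Stat3 list (8.70% lower, against 4.78% of all genes, with a list median of -0.24).

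**Figure D4:**
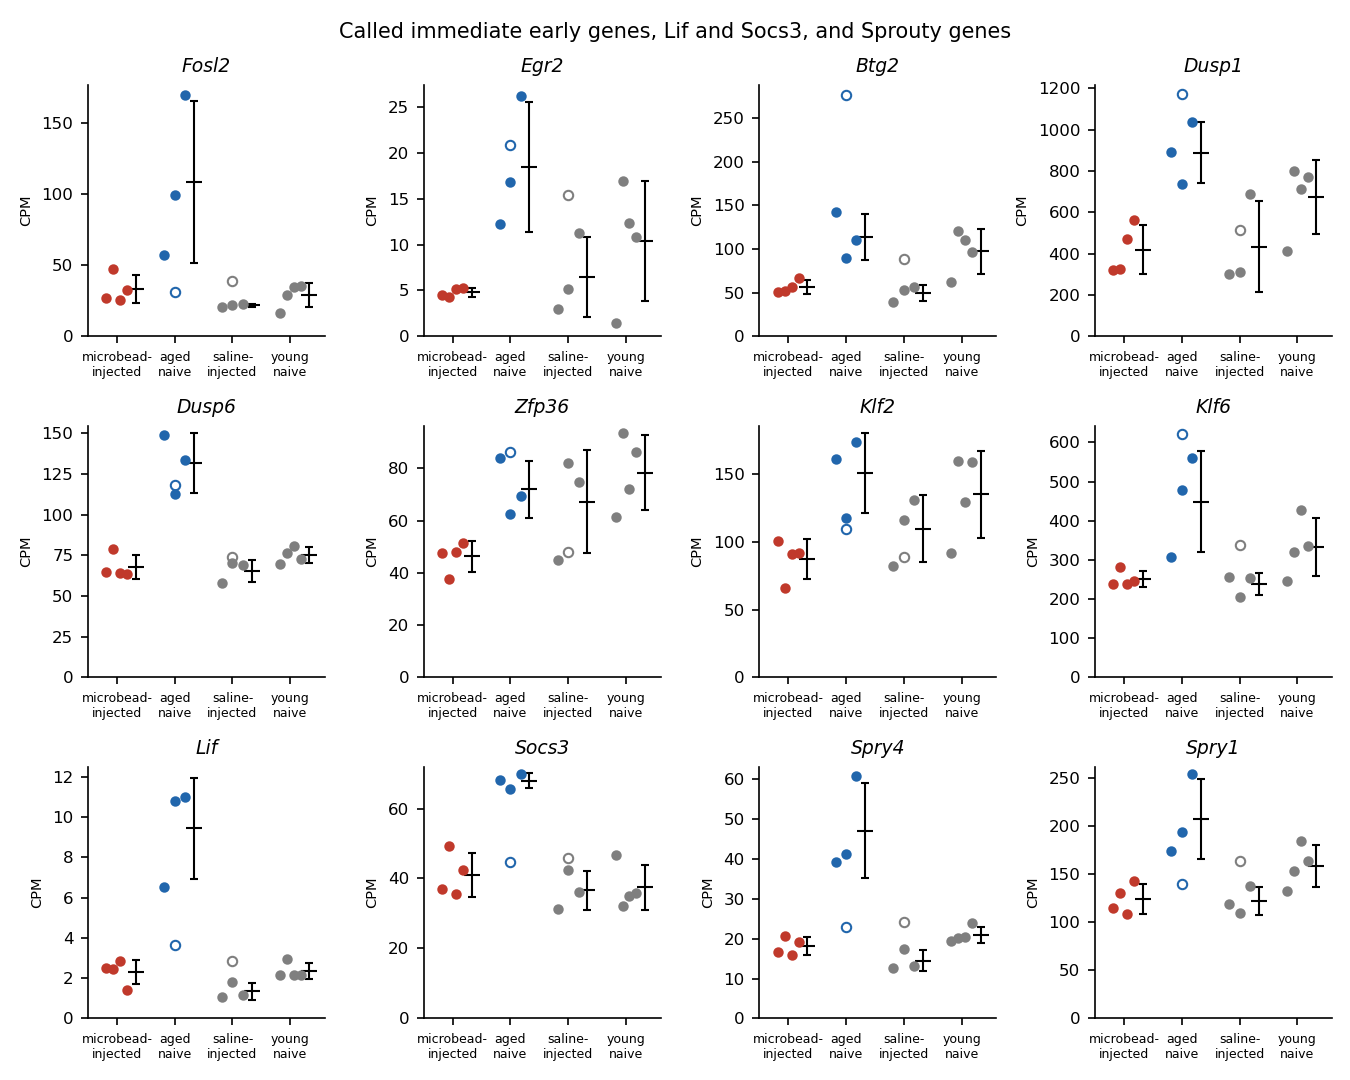
Expression in CPM (vertical axes, from 0) of the 8 called immediate early genes, Lif, Socs3 and 2 Sprouty genes. Filled points are libraries (4 microbead-injected, 3 aged naïve, 3 saline-injected, 4 young naïve), bars show mean ± SD of the filled points and open points are aged replicate 2 and saline replicate 4. All filled aged points lie above the microbead-injected ones in each panel; aged replicate 2 lies near the microbead-injected nerves for Fosl2, Lif, Socs3 and both Sprouty genes.

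Of 26 cytokines and chemokines, Lif and Cxcl1, a chemokine for neutrophils, were the only ones called, both lower (7.69%, against 4.78% of all genes). Cxcl1 was close to the counting limit, with 0.658, 1.17, 1.41 and 0.950 CPM in microbead-injected and 3.69, 2.46 and 2.32 CPM in aged nerves (edgeR log2 fold change -1.41, SE 0.391, adjusted p = 0.0137). Among 27 neurotrophins, growth factors and receptors, Pdgfa, the platelet-derived growth factor that drives oligodendrocyte precursors, was higher (93.2 ± 9.20 CPM in microbead-injected and 56.6 ± 8.45 CPM in aged nerves, SD, n = 4 and 3; edgeR log2 fold change 0.72, SE 0.102, adjusted p = 1.24e-04). The neuregulin receptor Erbb3 (-1.10), Gdnf, a trophic factor for neurons (-1.78), and the growth factor Igf1 (-0.68) were lower. Gdnf stood at 0.0950 to 1.58 CPM in microbead-injected and 0.983 to 3.62 CPM in aged nerves, and the groups overlapped.

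Among genes with a mean of at least 50 counts, the largest lower one was Crisp1, which encodes a secreted protein known from the epididymis. It had 2, 2, 7 and 13 counts in microbead-injected and 212, 93 and 42 counts in aged nerves, or 0.263, 0.212, 0.707 and 1.23 CPM and 25.2, 11.4 and 6.08 CPM (edgeR log2 fold change -4.48, SE 0.557, adjusted p = 1.49e-04). Saline replicate 4 held 28.1 CPM, whereas aged replicate 2 and saline replicates 1 to 3 had no count. Zbtb16, the transcriptional repressor PLZF, had 8.68, 4.77, 10.003 and 5.79 CPM in microbead-injected and 19.9, 18.7 and 34.7 CPM in aged nerves (edgeR log2 fold change -1.74, SE 0.264, adjusted p = 2.74e-04). Cdk6, a kinase of entry into the cell cycle, had 3.42, 4.03, 3.54 and 3.61 CPM in microbead-injected and 9.05, 10.2 and 11.4 CPM in aged nerves (edgeR log2 fold change -1.48, SE 0.213, adjusted p = 1.33e-04). Replicates of Cdk6 agreed closely in both groups. Tc2n, a protein with C2 domains (-1.93), Cdr1 (-1.52), Gdap10 (-1.39), Nhedc2, a sodium/proton exchanger (-1.37), the kinase Uhmk1 (-1.36) and Gm15910 (-1.35) were the others beside Egr2, Fosl2 and Spry4. The libraries do not record the strand, so reads of Cdr1 and of the RNA transcribed against it cannot be told apart.

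Clock genes differed in both directions, 2 of 20 higher and 2 lower. Gm129 (Ciart; chromosome 3, 95878505 to 95882228) had 24.9999, 7.10, 32.9 and 17.4 CPM in microbead-injected and 5.60, 4.43 and 5.79 CPM in aged nerves (edgeR log2 fold change 1.97, SE 0.443, adjusted p = 0.0071). Microbead-injected replicate 2 was close to the aged nerves and replicates 1 and 3 were far above them. Dbp, an output gene of the clock, had 433, 225, 558 and 482 CPM in microbead-injected and 188, 216 and 258 CPM in aged nerves (edgeR log2 fold change 0.94, SE 0.284, adjusted p = 0.0309), and replicate 2 was again the low one. Rora, the nuclear receptor that activates Bmal1, had 102, 88.9, 82.7 and 80.1 CPM in microbead-injected and 139, 147 and 171 CPM in aged nerves (edgeR log2 fold change -0.79, SE 0.0909, adjusted p = 3.03e-05). The calls of Ciart and Dbp were lost with the library code as a term, and that of Dbp also when any 1 library but microbead-injected replicate 2 was left out. Npas2, a partner of Bmal1, was lower with overlapping groups (-0.62). The hour of collection was not used here. The promoter of Ciart is shown because E-boxes, on which the clock factors act, are frequent in it: it held 3, against at least 1 in 7.24% of all windows.
Ciart, chr3:95882179-95882478, minus strand, E-boxes (CACGTG) in capitals: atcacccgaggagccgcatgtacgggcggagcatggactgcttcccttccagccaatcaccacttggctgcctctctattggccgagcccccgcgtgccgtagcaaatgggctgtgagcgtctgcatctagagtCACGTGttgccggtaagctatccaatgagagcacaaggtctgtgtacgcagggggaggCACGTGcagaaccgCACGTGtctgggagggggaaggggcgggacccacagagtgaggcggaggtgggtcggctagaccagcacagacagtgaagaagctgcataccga
The windows of Dbp, Npas2 and Rora held none.

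Of 42 Wnt pathway genes, 8 were called higher and 3 lower. The list median was -0.07. Rspo3, an R-spondin that enhances Wnt signals, had 35.1, 32.7, 45.7 and 41.8 CPM in microbead-injected and 18.2, 18.4 and 17.7 CPM in aged nerves (edgeR log2 fold change 1.10, SE 0.135, adjusted p = 4.28e-05). Wif1, an extracellular Wnt inhibitor, had 62.5, 47.8, 58.1 and 59.3 CPM in microbead-injected and 27.99, 28.5 and 28.1 CPM in aged nerves (edgeR log2 fold change 1.01, SE 0.147, adjusted p = 1.45e-04). The 3 aged nerves of the fit were nearly identical for both genes, whereas aged replicate 2 held 42.1 CPM of Rspo3 and 33.9 CPM of Wif1. Tcf7l1, a transcription factor at the end of the pathway (0.68), was higher and the receptor Fzd3 lower, at 166 ± 14.7 CPM in microbead-injected and 268 ± 40.98 CPM in aged nerves (SD, n = 4 and 3; edgeR log2 fold change -0.69, SE 0.105, adjusted p = 2.04e-04). Without aged replicate 4, 5 were called higher and 1 lower. The ligand Bmp7 (0.92) was higher and the receptor Tgfbr1 (-0.69) lower among 38 TGF-beta and BMP genes, and both calls were lost without aged replicate 4. At 2.63% each way this list stayed below the shares of all genes (6.07% higher, 4.78% lower), with a median of -0.05. In 18 endothelin genes, the processing enzyme Ece2 (0.59) and the phospholipase Plcb3 (0.61) were higher, calls lost without aged replicate 4 or without microbead-injected replicate 4, and the G protein subunit Gna13 lower, at 114 ± 16.1 CPM in microbead-injected and 196 ± 32.8 CPM in aged nerves (SD, n = 4 and 3; edgeR log2 fold change -0.78, SE 0.117, adjusted p = 1.83e-04).

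Heat shock genes were higher in 5 of 20 cases (3 without aged replicate 4) and lower in none (median 0.25). Hsp90ab1, the constitutive cytosolic Hsp90, averaged 672 ± 54.4 CPM in microbead-injected and 405 ± 76.6 CPM in aged nerves (SD, n = 4 and 3; edgeR log2 fold change 0.73, SE 0.112, adjusted p = 2.23e-04). Its co-chaperone Stip1 (0.94) and Bag3, which directs aggregates to autophagy (0.78), were also called. The inducible Hspa1a (0.62) and Hspa1b are near-identical copies whose reads may be shared, and their calls are uncertain. Of 25 endoplasmic reticulum genes, the chaperone Hsp90b1 was higher (0.86), and the stress sensor Ern1 (-0.86) and the stress-induced Trib3 (-0.98) were lower. These shares, 4% higher and 8% lower, were near those of all genes (6.07% and 4.78%). Among 31 antioxidant genes, the regulator Nfe2l2 (0.60) and the metallothioneins Mt1 (0.59) and Mt2 (0.59) were higher and lay just above the 1.5-fold minimum, and their calls were lost without aged replicate 4. Only 1 of 73 subunits of oxidative phosphorylation (Ndufa10, 0.81) and 1 of 60 ribosomal proteins (Rpl4, 0.68) were called.

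Among 32 genes of the cell cycle and growth arrest, 9.4% were called higher and 3.1% lower, near the shares of all genes (6.07% and 4.78%). Cdkn2b, which blocks Cdk4 and Cdk6 and lies in a locus associated with glaucoma, had 29.7, 38.3, 34.96 and 37.4 CPM in microbead-injected and 19.8, 14.3 and 19.5 CPM in aged nerves (edgeR log2 fold change 0.98, SE 0.142, adjusted p = 1.39e-04). Cdkn1c, another kinase inhibitor (0.72), and the stress gene Gadd45b (1.08) were higher and Cdk6 lower. Gadd45b averaged 32.2 ± 10.8 CPM in microbead-injected, 15.2 ± 1.85 CPM in aged and 21.5 ± 3.93 CPM in young naïve nerves (SD, n = 4, 3 and 4), and its lowest microbead-injected nerve lay within the young range. Of 23 glaucoma genes, Cdkn2b, Optn and Tek were higher. Cyp1b1, a cytochrome mutated in congenital glaucoma, was lower, with 64.5, 72.1, 49.5 and 54.9 CPM in microbead-injected and 107, 98.9 and 117 CPM in aged nerves (edgeR log2 fold change -0.84, SE 0.108, adjusted p = 6.05e-05). Pkd1, or polycystin 1, of the list of 12 mechanosensitive channels, had 207, 199, 179 and 160.2 CPM in microbead-injected and 363, 449 and 537 CPM in aged nerves (edgeR log2 fold change -1.27, SE 0.124, adjusted p = 1.26e-05), against 89.1 to 110.1 CPM in young naïve nerves. The cation channel Trpc1 was lower too (-0.69), and none of that list was higher. The call of Trpc1 was lost without aged replicate 4.

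Myelin and other neighbouring tissues contributed unequally. Mbp, the myelin basic protein, had 6460.4, 4921, 8081 and 7492 CPM in microbead-injected and 4187, 5146 and 3940.5 CPM in aged nerves and was not called (edgeR log2 fold change 0.61, SE 0.253, adjusted p = 0.0997). Of 20 oligodendrocyte and myelin markers, Mobp alone was called (1.17), and the list summed to 11746 to 15801 CPM in microbead-injected and 7438 to 10619 CPM in aged nerves. Gpr17 (1.29) and Bcas1 (1.06), which mark committed precursors, were higher among 8 precursor markers. The median of these 8 was 0.07, and 4 of them had a positive log2 fold change. Their sums overlapped, at 328 to 495 CPM in microbead-injected and 304 to 348 CPM in aged nerves. None of 19 retinal and pigment cell markers was called by edgeR or DESeq2, and 0 had an unadjusted p under 0.05 in edgeR, with a median of -1.06. Muscle markers were near 0 (sums of 18.8 to 20.6 and 24.6 to 55.1 CPM), as were blood markers (15.2 to 52.5 and 52.995 to 76.3 CPM). The blood sum rests on other listed genes, since Hba-a1, Hba-a2, Hbb-b1 and Hbb-b2 had no count in any of the 7 libraries. Whether their reads were lost in counting was not tested. From the muscle and blood lists Pvalb (-0.76) and the erythroid enzyme Alas2 (-1.68) were called lower, and from 7 Schwann cell markers only Egr2 was.

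Genes that set the microbead-injected nerves apart from the young naïve and saline-injected ones too were sought by a rule chosen after the values were seen. Of the genes called higher with no overlap of libraries and a mean count of at least 50, 50 had both the young naïve and the saline-injected mean at 0.25 or less on the scale from the aged mean (0) to the microbead-injected mean (1), and 4 of the genes called lower did. Such genes were few: without the conditions on overlap and count, 58 of the 883 and 10 of the 695 met the rule. The choice used the values, so the levels are a description. Ace, the angiotensin-converting enzyme of endothelium, had 20.3, 21.1, 18.996 and 24.3 CPM in microbead-injected and 12.03, 12.4 and 11.001 CPM in aged nerves, with 8.23 to 9.73 CPM in young naïve and 8.13 to 11.4 CPM in saline-injected nerves. Cdh5, or VE-cadherin of endothelial junctions, had 37.2, 30.7, 37.9 and 40.2 CPM in microbead-injected and 20.6, 23.4 and 16.1 CPM in aged nerves, with 16.1 to 21.3 CPM in young naïve nerves. Capns1, the small subunit of calpains, had 383, 396, 420.03 and 446 CPM in microbead-injected and 252, 236 and 218 CPM in aged nerves, with 174 to 180.3 CPM in young naïve nerves. For each of the 3 the microbead-injected nerves were above all 10 other libraries of the fit. Cobl, an actin nucleator (0.85), Daam2, a formin of the Wnt pathway (0.77), Clip2, a linker of microtubules (0.84), Syt7, a calcium sensor of exocytosis (1.02), and Nlgn2, an adhesion molecule of inhibitory synapses (0.73), were of this kind. Greb1, an estrogen-induced gene (0.82), the chromatin protein Smarce1 (0.77), the splicing factor Prpf19 (0.74) and the histone gene Hist2h3c2 (0.80) were too.

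**Figure D5:**
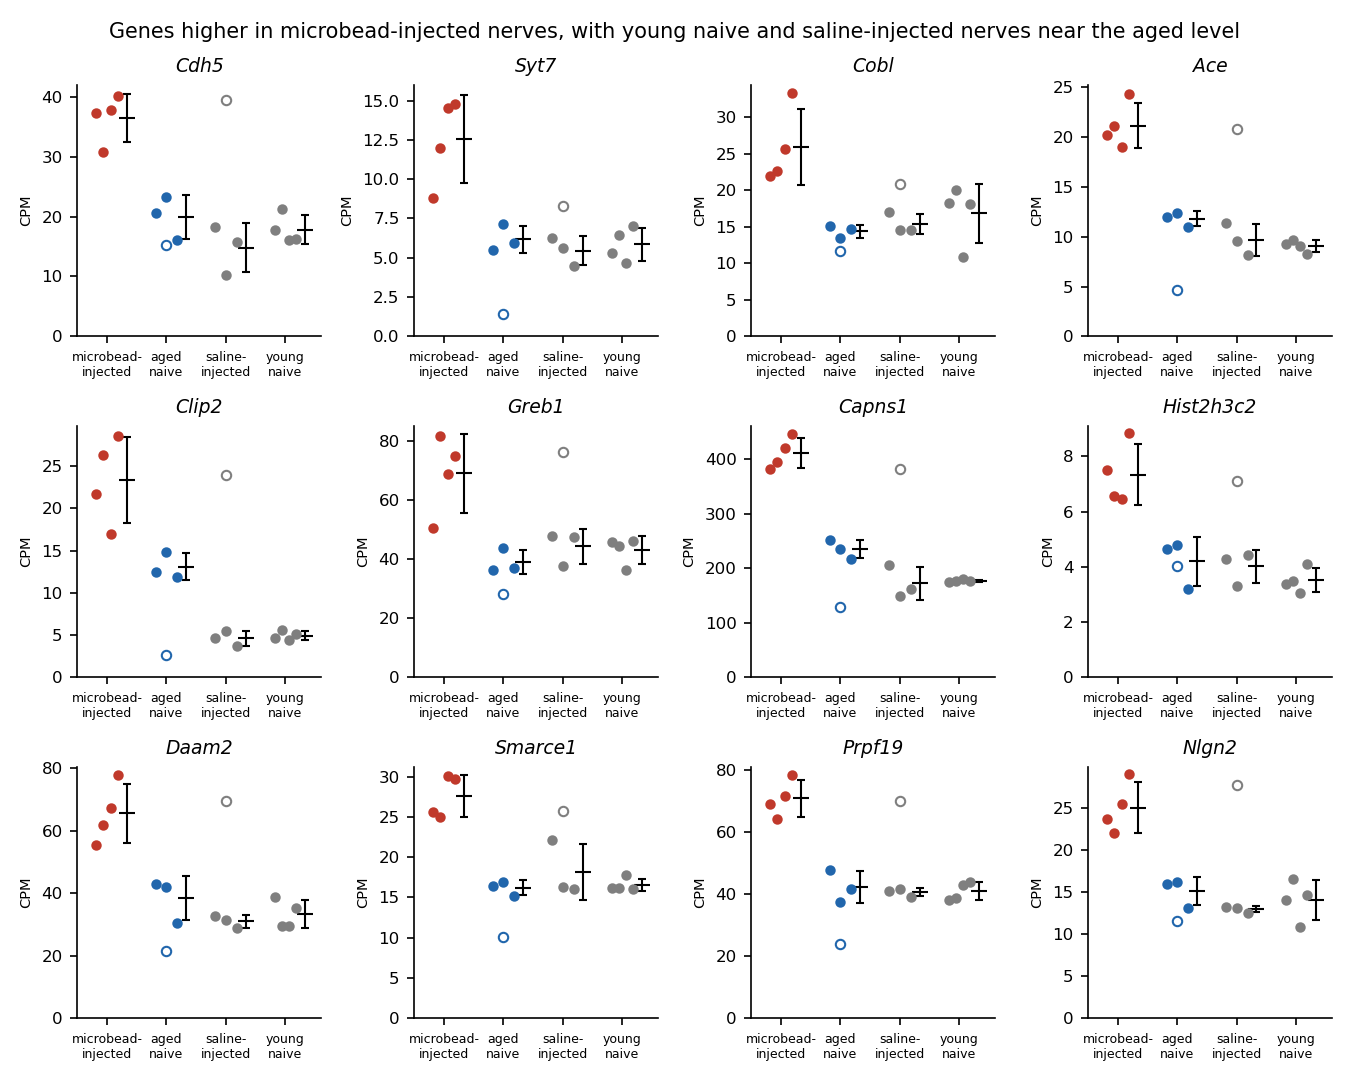
Expression in CPM (vertical axes, from 0) of 12 genes called higher in microbead-injected than in aged nerves whose young naïve and saline-injected means lay near the aged mean, a rule chosen after the values were seen. Filled points are libraries, bars show mean ± SD of the filled points, and open points are aged replicate 2 and saline replicate 4. Saline replicate 4 lies with the microbead-injected nerves in most panels, for example at 20.9 CPM for Ace.

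Saline replicate 4, which took no part in the choice, lay nearer to the microbead-injected than to the aged mean in 45 of the 50 genes, no larger a share than over all genes called higher, of which 60 of 883 (6.80%) lay nearer to the aged mean in that library. For Ace, saline replicate 4 and aged replicate 2 stood at 20.9 and 4.61 CPM, and for Capns1 at 381 and 129 CPM. The 4 lower genes were Zfp36, the vessel-wall factor Foxs1 (-0.84), Haus3 of the spindle (-0.61) and the prefoldin subunit Pfdn2 (-0.61).

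Gene length and the level of Lars2 moved with the groups. Called genes had a median length of 3130 bases when higher and 3976 bases when lower, against 2867 bases over all genes tested. Removing each library's trend with gene length left 929 genes higher and 617 lower. Lars2, the mitochondrial leucyl-tRNA synthetase, had 6024, 4617, 4959 and 4205 CPM in microbead-injected and 8569.99, 9170.1 and 9313 CPM in aged nerves (edgeR log2 fold change -0.86, SE 0.156, adjusted p = 0.00103), and Mir5109 differed alike (-0.93). The counts of both may include ribosomal RNA, and whether they are messenger RNA was not tested. Rn45s, the precursor of ribosomal RNA, had 2199 to 3432 CPM in microbead-injected and 4257 to 4882 CPM in aged nerves and was not called (adjusted p = 0.181 from edgeR). Both features were lower in young naïve and in saline replicates 1 to 3 than in any of the 7 libraries, at 131 to 213 CPM of Lars2 in young naïve nerves. Whether this signal has a part in the called genes was not tested.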

How the data were processed

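RNA of pooled nerve heads was amplified by a SMARTer kit for ultra low input that keeps no record of the strand, and sequenced. Per the labels and the study's methods, the authors aligned reads to mm10 with STAR 2.3.0 and counted them with featureCounts, and they deposited whole, unnormalized counts for 23337 genes. The featureCounts version and its annotation were not given in the sources used here. Deposited comparison tables hold the authors' own fold changes and p-values and were not used for values.

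Counts were filtered (filterByExpr), normalized by TMM and tested with edgeR 4.0.16 (R 4.3.3) in a robust quasi-likelihood model of the 4 groups over the 14 libraries that the authors kept, with Benjamini-Hochberg adjustment over 14541 genes. The other groups share the estimate of the spread only. The contrast was microbead-injected minus aged naïve, and genes were called at a fold of 1.5, p under 0.01 and adjusted p under 0.05. Alternatives were other size factors, other filters on low counts, DESeq2 1.42.0, only the 7 libraries, no minimum fold, the 2 libraries left out, the replicate number as a block, the library code, a correction for gene length (loess, span 0.5) and leaving out each library. The procedure was tested on simulated counts. Low counts limit precision, and the depth is given with the report.

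Named were the 12 called genes with the largest change in each direction (no overlap between groups, mean count of at least 50), up to 4 called members of each of 46 lists with the smallest p, the study's single-cell panel and a few tissue markers, of which some results are not reported here. Some further members were named after their values were seen: Dusp1, Klf2, Kcnj10, Cpe, Scg2, Spry1, Spry2, Spock1, Spock2, Xist and Y-linked genes, and those given without values. The members and lists were chosen with earlier results of these data known. Of the listed symbols, 3 were not matched. Promoters were read from RefSeq (GRCm38.p6).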

Additional observations from a re-analysis of the deposited data

Results flagged for a closer look

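Within the microbead-injected and the aged groups, 4 libraries each with aged replicate 2 included, the CPM of every named gene were screened for a library far from its fellows by Dixon's ratio at the 95% level. Of 358 such groups 23 had one, and chance alone would give about 1 in 20. In 12 of the 23 the library was aged replicate 2, which did not enter the fit. It was the lowest aged nerve for Tek (15.5 CPM), Myo10 (67.7 CPM), Nrcam (90.9 CPM), Socs3 (44.7 CPM), Lars2 (679.7 CPM) and Mir5109 (16.8 CPM). It was the highest for Ctsh (424 CPM), Rspo3 (42.1 CPM), Wif1 (33.9 CPM), Mt2 (506 CPM), Psmb8 (232 CPM) and Aif1 (53.2 CPM). Aged replicate 4 was low for Kif4 (4.63 CPM) and Lamp1 (921 CPM), and aged replicate 1 was high for Lpl (7.86 CPM).

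Among microbead-injected nerves, replicate 1 was high for Cdr1 (10.7 CPM), Cd74 (691 CPM) and Cdkn1c (116 CPM) and low for Megf10 (68.03 CPM). Replicate 2 was high for Gdap10 (11.8 CPM), C1qb (269 CPM), C3 (93.9 CPM) and Dusp6 (78.98 CPM). The other 3 nerves had 252, 253 and 253 CPM of C1qb, so the distance was small.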

How the results depend on the processing

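Called genes numbered 1306 to 1617, against 1578, under other size factors, DESeq2, other filters on low counts or the 7 libraries alone. The same range held for the gene length correction and for adding aged replicate 2 or all 16 libraries. The fit with the library code as a term is not counted here, since aged replicate 4 alone stood for the aged nerves in it. Of the calls, 49.6% (upper-quartile factors) to 60.1% (gene length correction) were higher, against 56.0% as reported. The totals hide turnover: 1137 of the 1441 genes called with all 16 libraries and 1196 of the 1589 with aged replicate 2 added were among the 1578. No named gene that was called changed direction in any alternative. Without a minimum fold 3517 genes were called (1976 higher, 1541 lower), and code 4 alone, with 1 aged library, gave 704 (404 higher, 300 lower). Leaving out 1 library gave 997 to 1726 called genes (582 to 1024 higher, 415 to 774 lower), with the fewest without aged replicate 4. Replicate numbers did not pair the libraries: same-numbered deviations correlated at -0.05, 0.0009 and -0.24, and the fit with the replicate number as a block called 1546 genes (1411 shared). Counted over all alternatives and called named genes, the call was kept 2688 times and lost 359 times, 78 of them within code 4, 41 with the library code as a term and 41 without aged replicate 4, and the cause was not tested. With aged replicate 2 added, or with all 16 libraries, 24 and 27 lost it.

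Direction changed only for genes that were not called (values are log2 fold changes). Abca7 was 0.15 with aged replicate 2 added, 0.15 with all 16 libraries, 0.14 with the library code as a term, 0.12 with code 4 alone, 0.055 with the length correction and -0.16 to 0.060 when 1 library was left out. Dock1 was 0.046 with aged replicate 2 added and 0.045 with all 16 libraries, H2-T23 -0.0062 and -0.0067, Srgn -0.15 and -0.15, and Aif1 -0.21 and -0.21 under the same pair of settings. Megf10 was -0.0019 with RLE size factors, -0.028 with upper-quartile factors, -0.011 with the stricter filter, -0.00054 with DESeq2, -0.0075 with the 7 libraries, -0.013 with the replicate block, -0.15 with the library code as a term, -0.18 with code 4 alone and -0.088 to 0.055 when 1 library was left out. Psmb8 was 0.27 with the library code as a term, 0.25 with code 4 alone and -0.31 to 0.037 when 1 library was left out. At 6213789 to 10726122 counts a library, genes near 1 CPM rest on few counts.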

Other observations

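Transcripts of the sex chromosomes were examined because each library was said to pool nerves of both sexes. Xist, the RNA that coats the inactive X chromosome and is made in females, had 267, 183, 253 and 206 CPM in microbead-injected and 411, 479 and 518 CPM in aged nerves (edgeR log2 fold change -1.05, SE 0.288, adjusted p = 0.0217). Kdm5d, a Y-linked histone demethylase made in males, had 9.61, 6.78, 7.98 and 9.88 CPM in microbead-injected and 13.6, 18.7 and 14.04 CPM in aged nerves (edgeR log2 fold change -0.85, SE 0.204, adjusted p = 0.00561). The Y-linked Eif2s3y (-0.45), Ddx3y (-0.30) and Uty (-0.43) had log2 fold changes of the same sign and were not called. Xist and Kdm5d were thus both lower in microbead-injected nerves, and both were present in all 7 libraries. The call of Xist was lost without aged replicate 4 and that of Kdm5d with the library code as a term. Young naïve nerves had 166 to 328 CPM of Xist and 7.05 to 11.98 CPM of Kdm5d. These genes were picked after their values were seen.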
